A study of Saccharomyces cerevisiae with 12 samples.

Results

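RSB1, RTA1, PUG1 and YLR046C are the budding yeast genes of the RTA1-like family of membrane proteins, and their transcripts were followed in cultures exposed to the herbicide alachlor. The members are the 4 named genes of this family, out of 5449 named genes on the array, and each was read by 1 probe set. They were chosen by family and by the measured log2 changes with alachlor at both doses, among which the strong response of RSB1 was known, so their values with and without alachlor are given as a description, with no test. RNA came from exponential cultures of Saccharomyces cerevisiae BY4741 in minimal medium and was read on 12 Affymetrix Yeast Genome 2.0 arrays, 3 biological replicates in each of 4 groups. The groups were cultures with 110 mg/L alachlor, called the LOEC by the submitters, with untreated LOEC controls, and cultures with 200 mg/L alachlor, called the IC20, with untreated IC20 controls, all after 2 h. Each dose was a separate experiment with controls of its own. All 4 groups are BY4741, a haploid laboratory line that carries disruptions of HIS3, LEU2, MET17 and URA3.

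Proteins of the RTA1-like family span the plasma or other membranes several times and are known from fungi. Rsb1 was described as an exporter or flippase of sphingoid long-chain bases, the backbone of sphingolipids, and its gene is a known target of the pleiotropic drug resistance factors Pdr1 and Pdr3. RTA1 is known for giving resistance to 7-aminocholesterol when in excess, and PUG1 encodes a plasma membrane protein of protoporphyrin uptake and heme export. YLR046C has no assigned function. Per the RefSeq gene table (assembly R64), the coding lengths are 1065 bases for RSB1 (YOR049C), 954 for RTA1 (YGR213C), 912 for PUG1 (YER185W) and 813 for YLR046C, against a median of 1236 over all genes.

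Values are intensities on a linear scale in arbitrary units, as deposited. Array medians lay between 1561.3 and 1613, and replicates correlated across genes at r = 0.993 to 0.998. LEU2, URA3 and MET17, which the strain lacks, read up to 228.8, 47.2 and 165 on any array, and 228.8 is used below as the level under which a reading may be background. Probe sets differ in their own background, so a reading under 228.8 does not show that a transcript was absent. A difference against a group with an array below that level is a lower bound ("at least"), for which a dimmer mean under 228.8 was replaced by 228.8, and no fold is given where both means lie below it. The number of arrays, 3 in a group, limits the precision. Cultures were read as a whole, so a change in all cells and a change in some of them cannot be told apart.

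RSB1, the sphingoid base exporter, read 2058.2, 2151 and 2019.7 in cultures with 110 mg/L alachlor, against 221.7, 227 and 224.6 in LOEC controls. The exposed cultures form a tight group far above their controls, and all 3 controls lie just under 228.8. The means were 2076 ± 67.5 at 110 mg/L and 224 ± 2.68 in LOEC controls (SD, n = 3 each), a level at least 9.07-fold higher with alachlor. With 200 mg/L alachlor RSB1 read 4338.8, 4118.3 and 3737.4, against 215.7, 238.6 and 242.3 in IC20 controls. Here 2 of 3 controls stood slightly above the level of the deleted loci, and again no exposed culture came near a control. Means were 4065 ± 304 at 200 mg/L and 232 ± 14.4 in IC20 controls (SD, n = 3 each), at least 17.5-fold higher with alachlor. RSB1 had the largest log2 change of all 5449 genes in both experiments, which is part of why it was chosen.

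Across the groups RSB1 was thus ordered with 200 mg/L on top, then 110 mg/L, then both sets of controls. The mean at 200 mg/L was 1.96 times the mean at 110 mg/L, a ratio taken across experiments, and the ranges of those groups do not overlap. The fitted log2 changes were 4.13 at 200 mg/L and 3.21 at 110 mg/L, a difference of 0.92, but both rest on controls near background and are not exact. The log2 SD of RSB1 between replicates was 0.109 at 200 mg/L, 0.047 at 110 mg/L, 0.091 in IC20 controls and 0.017 in LOEC controls. With each array's trend with coding length removed it was 0.077 at 200 mg/L, 0.052 at 110 mg/L, 0.075 in IC20 controls and 0.025 in LOEC controls, smaller in the IC20 experiment and larger in the LOEC experiment.

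RTA1, the gene of 7-aminocholesterol resistance, with 110 mg/L alachlor read 217.2, 232.4 and 221.2, against 109.7, 113.2 and 133 in LOEC controls. All 3 exposed cultures were above all 3 controls, yet only 1 of these 6 arrays passed 228.8. The means were 224 ± 7.90 at 110 mg/L and 119 ± 12.55 in LOEC controls (SD, n = 3 each), 105 units apart, and since both are under the level of the deleted loci no fold is given. With 200 mg/L alachlor RTA1 read 637.6, 615.2 and 565.5, against 128.1, 99.4 and 117.5 in IC20 controls. The exposed cultures now all stood well clear of 228.8 while every control stayed below it. Means of 606 ± 36.9 at 200 mg/L and 115 ± 14.5 in IC20 controls (SD, n = 3 each) make the level at least 2.65-fold higher with alachlor. The mean at 200 mg/L was at least 2.65 times that at 110 mg/L, again across experiments and with the mean at 110 mg/L replaced by 228.8, and the order of its groups was that of RSB1: 200 mg/L, 110 mg/L, then both controls, whose ranges overlap.

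**Figure D1:**
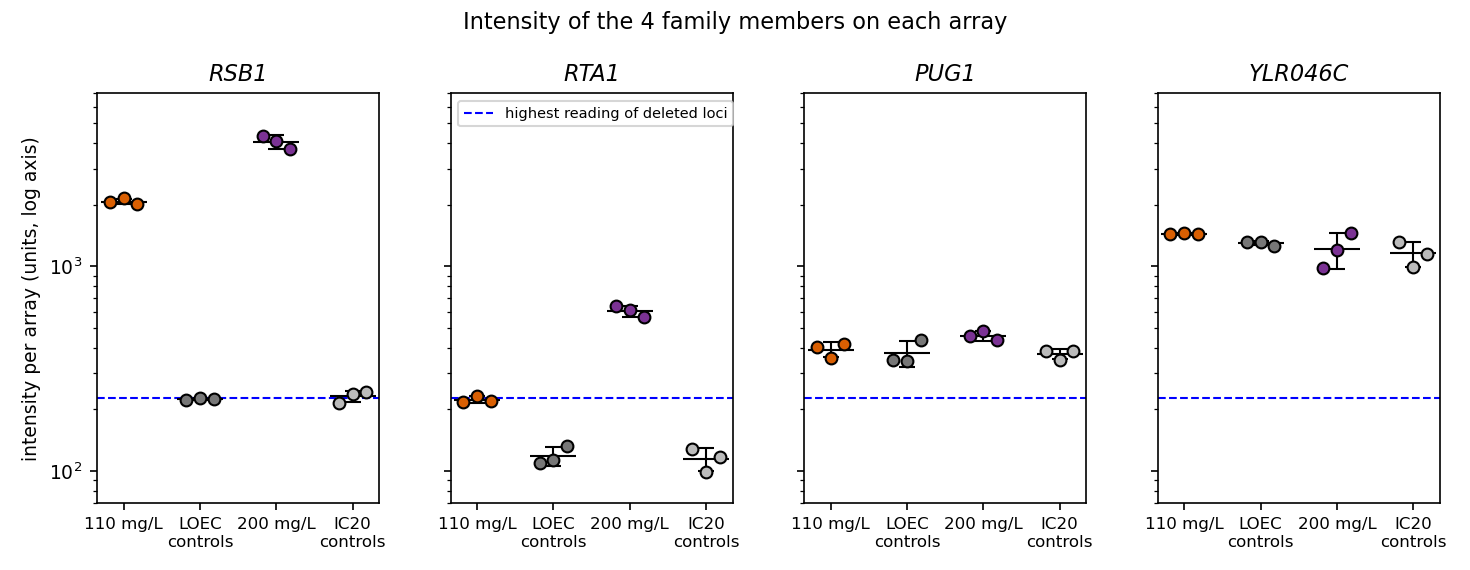
Intensity of RSB1, RTA1, PUG1 and YLR046C on each of 12 arrays (points, log axis), with the mean and SD of each group of 3 (bars). The dashed line is 228.8, above which none of the deleted loci LEU2, MET17 and URA3 read on any array. Untreated readings of RSB1 lie near it, those of RTA1 below it and those of PUG1 and YLR046C above it.

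PUG1, of protoporphyrin uptake and heme export, differed little between groups. With 110 mg/L alachlor it read 404, 355.7 and 417.8, against 348.2, 343.4 and 439.4 in LOEC controls, and the groups overlap because of the third control. Its means were 393 ± 32.6 at 110 mg/L and 377 ± 54.1 in LOEC controls (SD, n = 3 each), a log2 change of 0.064 (SE 0.097). Without LOEC control array 3 the log2 change was 0.18. That array also read high among the LOEC controls for RTA1, LEU2, MET17 and URA3, with log2 deviations from the group mean of 0.17, 0.20, 0.16 and 1.05 beside 0.23 for PUG1, while the median deviation of the 1090 dimmest genes there was 0.025. Its part in the result for PUG1 was not tested.

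With 200 mg/L alachlor PUG1 read 457.9, 485.5 and 434.6, against 386.1, 349.7 and 386.3 in IC20 controls. Every exposed culture was above every control, by a small margin. The means were 459 ± 25.45 at 200 mg/L and 374 ± 21.0 in IC20 controls (SD, n = 3 each), 1.23-fold (log2 change 0.30, SE 0.097). PUG1 ranked 370 among the rises in that experiment, where RSB1 ranked 1. In order of level the groups of PUG1 were 200 mg/L, 110 mg/L, LOEC controls and IC20 controls, and from 110 mg/L down the neighbours differ by less than their spread.

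YLR046C, the member without an assigned function, with 110 mg/L alachlor read 1442.3, 1458.2 and 1432.4, against 1311.9, 1320.2 and 1264.6 in LOEC controls. The groups do not overlap, and both are tight. The means were 1444 ± 13.0 at 110 mg/L and 1299 ± 30.0 in LOEC controls (SD, n = 3 each), a ratio of 1.11 (log2 change 0.15, SE 0.13, with the SE set by the spread over all 12 arrays). With 200 mg/L alachlor it read 978.4, 1209.1 and 1455.5, against 1323.8, 994.8 and 1156.3 in IC20 controls. Here the groups overlap over almost their whole range. Means were 1214 ± 239 at 200 mg/L and 1158 ± 164.5 in IC20 controls (SD, n = 3 each), with a log2 change of 0.059 (SE 0.13). By mean the order was 110 mg/L, LOEC controls, 200 mg/L and IC20 controls, and below 110 mg/L the neighbours in that order overlap.

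The direction of YLR046C at 200 mg/L hung on single arrays: the log2 change was -0.046 without IC20 control array 2, -0.081 without 200 mg/L array 3, 0.21 without 200 mg/L array 1 and 0.16 without IC20 control array 1. In the IC20 experiment its log2 SD was 0.287 at 200 mg/L and 0.206 in controls, and 95.7% and 92.8% of genes had the same or a smaller SD. In the LOEC experiment its log2 SD was 0.0130 at 110 mg/L and 0.0335 in controls, with 5.21% and 25.8% of genes at or below it. The arrays on which YLR046C was low, 200 mg/L array 1 and IC20 control array 2, were also those on which longer genes read low, with Spearman's rho across genes between deviation and coding length of -0.488 and -0.464. Its high arrays, 200 mg/L array 3 and IC20 control array 1, had rho of 0.57 and 0.396. YLR046C is itself short, with 27.5% of genes shorter. With the length trend removed its log2 SD was 0.335 at 200 mg/L and 0.232 in IC20 controls. The part of the length trend in the spread of YLR046C was not tested.

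**Figure D2:**
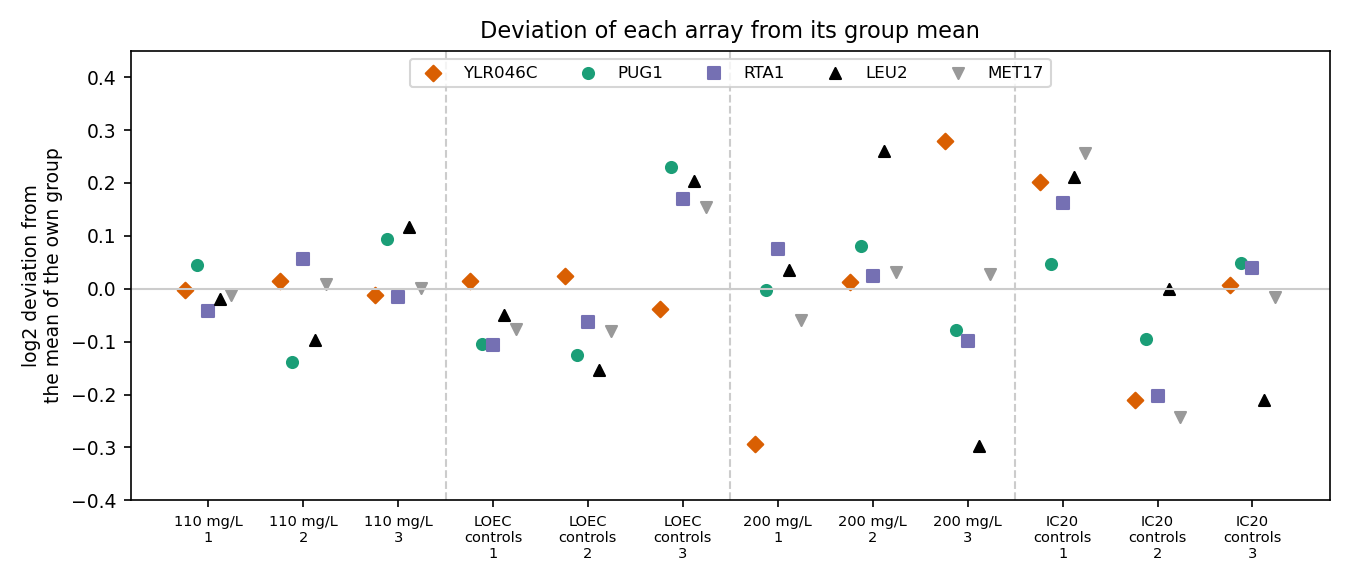
Log2 deviation of each array from the mean of its own group for YLR046C, PUG1, RTA1 and the deleted loci LEU2 and MET17; columns are the 12 arrays by group and replicate number. YLR046C ranges from -0.293 to 0.28 at 200 mg/L and stays within 0.0139 of 0 at 110 mg/L, and LOEC control array 3 is high for all but YLR046C.

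Counted over the family, 3 of 4 members (RSB1, RTA1 and YLR046C) had all 3 cultures with 110 mg/L above all 3 LOEC controls, an arrangement found in 15.4% of all genes. At 200 mg/L it was RSB1, RTA1 and PUG1, 3 of 4, against 16.3% of all genes. No member had its exposed cultures below its controls at either dose, against 12.2% of genes at 110 mg/L and 14.5% at 200 mg/L. RSB1 and RTA1 were separated in both experiments, PUG1 in the IC20 experiment and YLR046C in the LOEC experiment. Since the members were chosen with these contrasts known, nothing is read from the counts.

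The difference between the untreated cultures of the experiments was not used to choose the members and was tested. The same control readings enter the changes with alachlor that were known at the choice, so the test is not wholly independent of it. Between IC20 and LOEC controls 0 of 4 members passed in limma with Benjamini-Hochberg adjustment over all genes, where 0.789% of genes passed. At an unadjusted limma p under 0.05 it was also 0 of 4, beside 792 of 5449 genes. The ranges of the controls overlapped for all 4 members, while 21.2% of genes had control groups that did not overlap. For RSB1 the log2 difference was 0.047, with a 95% confidence interval of -0.088 to 0.18 (limma adjusted p = 0.809). RTA1 differed by -0.048 (-0.26 to 0.16, limma adjusted p = 0.888), on readings that all lay below the level of the deleted loci. The value for PUG1 was -0.0035 (-0.22 to 0.21, limma adjusted p = 0.993). The widest interval was that of YLR046C, -0.17 (-0.46 to 0.11, limma adjusted p = 0.593). For PUG1 and YLR046C these intervals give the sizes of difference that the arrays leave possible. Control readings of RSB1 and RTA1 lay near or below 228.8, so their intervals describe the readings and do not bound a difference of transcript. A missed threshold does not show equal levels.

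Among all other genes, those whose profile was most like each member were found from the log2 value on every array minus the mean of its own controls, over 12 arrays. These arrays share the doses and the controls, so likeness is a description only. No gene came close to RSB1 in size: the smallest root mean square differences were 0.981 for GRE2, a methylglyoxal reductase, 1.17 for YGP1, a secreted glycoprotein, 1.25 for ICT1, an acyltransferase, 1.28 for CIS1 and 1.38 for the ABC exporter YOR1. By the shape of the profile alone, Pearson's r over the 12 arrays with RSB1 was 0.997 for YGP1, 0.997 for the acid phosphatase PHO11, 0.995 for GRE2, 0.995 for ICT1 and 0.995 for the ABC exporter PDR5.

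For RTA1 the profile is built on controls that all read below 228.8, so the size of its change is only bounded and the distances below hold for the readings as deposited. The root mean square difference was 0.194 for CIS1, 0.23 for the mitochondrial pyruvate carrier subunit MPC3, 0.231 for the putative alcohol dehydrogenase BDH2, 0.298 for YOR1 and 0.35 for FRM2. By shape they were YPL088W (r = 0.995), the ammonium transporter MEP2 (0.994), YML131W (0.992), the glycerol dehydrogenase-like GCY1 (0.991) and YHR140W (0.990), over 12 arrays. CIS1 and YOR1 are among the 5 least distant genes of both RSB1 and RTA1, although far from RSB1 in size, and no gene is among the nearest 5 of both by shape.

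PUG1 and YLR046C, which moved little, had near neighbours that also moved little. For PUG1 these were the steryl glucosidase EGH1, at a root mean square difference of 0.0647, SLI1, an acetyltransferase that gives resistance to the sphingolipid synthesis inhibitor myriocin (0.0677), the allantoin permease DAL4 (0.0785), SPG5 (0.0858) and the polyamine oxidase FMS1 (0.0863). By shape, EGH1 and SLI1 recurred at r = 0.939 and 0.915, with NPR3 (0.938), the kynureninase BNA5 (0.927) and ATG36 (0.920). For YLR046C they were the amino acid sensor SSY1 (0.0631), LST4 (0.0632), the mitophagy receptor ATG32 (0.0663), the sphingoid base kinase LCB4 (0.0689) and DIA2 (0.0722). By shape SSY1, LST4 and LCB4 recurred at r = 0.950, 0.928 and 0.925, with GCD6 (0.927) and the histidine permease HIP1 (0.917).

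The genes next to the members on the chromosomes changed by less than 0.25 on the log2 scale. RSB1 lies between RAT1 and ETT1, with log2 changes of -0.0015 and 0.19 at 200 mg/L and -0.017 and 0.092 at 110 mg/L. RTA1 lies between SLI1 and RPS0A, with 0.21 and -0.084 at 200 mg/L and 0.099 and -0.0024 at 110 mg/L; SLI1 is also among the genes nearest to PUG1 in profile. The neighbours of PUG1 are TOG1 and YER186C and those of YLR046C are STU2 and FRE8, and their log2 changes ran from -0.14 to 0.22 over both doses. Of the 8 neighbours 0 passed at 110 mg/L and 0 at 200 mg/L in limma, where 4.26% and 17.8% of all genes passed. An unadjusted limma p under 0.05 was found for 1 and 3 of them, beside 890 and 1716 of 5449 genes. This set was chosen after the data were seen.

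Other genes, of pathways picked as related to what is known of RSB1, RTA1 and PUG1, were counted from lists, by limma at adjusted p under 0.05 over all genes. Listed genes with group means below 228.8 were kept in the counts and medians. Of the 5449 genes, 3.05% were higher and 1.21% lower at 110 mg/L, and 10.0% were higher and 7.80% lower at 200 mg/L. These splits move with the scaling: 166 higher and 66 lower at 110 mg/L became 126 and 94 after median centring and 149 and 94 after quantile normalization, and 546 and 425 at 200 mg/L became 462 and 547 after median centring.

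The targets of Pdr1 and Pdr3, the class to which RSB1 belongs, had most of their members higher. Their list, like the others here, was chosen with earlier results of these data known, so its counts are a description. It holds GRE2, ICT1, CIS1, YOR1 and PDR5, which are also among the genes nearest to RSB1 in profile. Without RSB1, 17 were measured, of which 9 rose and 0 fell at 110 mg/L and 14 rose and 0 fell at 200 mg/L, with median log2 changes of 0.40 and 1.11 beside 0.0052 and 0.00021 over all genes. PDR18, HXT9 and HXT11, counted among the 17, had all their group means below 228.8. That they did not pass does not show a lack of response. PDR15, an ABC transporter of the list, read lower at 110 mg/L, with a log2 change of -0.24 (SE 0.063, limma adjusted p = 0.0631) that passed in 4 of 22 alternatives: quantile normalization, median centring, removal of the dimmest genes and removal of the length trend. PDR10, its close relative, had -0.18 there (limma adjusted p = 0.307), and at 200 mg/L PDR15 rose by 0.38 and PDR10 by 1.16. Both are named here after their values were seen. GRE2 rose by 1.85 and 2.72 on the log2 scale at 110 and 200 mg/L, CIS1 by 1.25 and 2.48, ICT1 by 1.58 and 2.23, YOR1 by 1.36 and 2.08 and PDR5 by 0.97 and 1.11. Each of these is smaller than the fitted change of RSB1. The response at 200 mg/L exceeded that at 110 mg/L by the test of the difference in 8 of the 17, and in 5 to 9 under the alternatives. Over all genes 1.25% differed in either direction, 54 with the larger value at 200 mg/L and 14 with the smaller. Each dose was a separate experiment, so dose and experiment cannot be told apart in this difference. Of 9 drug resistance factors 0 passed at 110 mg/L, where 2 had an unadjusted limma p under 0.05, beside 890 of 5449 genes. At 200 mg/L 1 rose: PDR3, also counted among the 17 targets, by 0.47 (SE 0.090, limma adjusted p = 0.00429). Without LOEC control array 3 the count at 110 mg/L was 1, and without IC20 control array 3 or 200 mg/L array 1 the rises at 200 mg/L were 2. Without 110 mg/L array 2, 1 factor fell at 200 mg/L. PDR1 itself, at 0.030 and 0.14, and PDR3 at 110 mg/L, at 0.27, stayed short of the threshold.

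**Figure D3:**
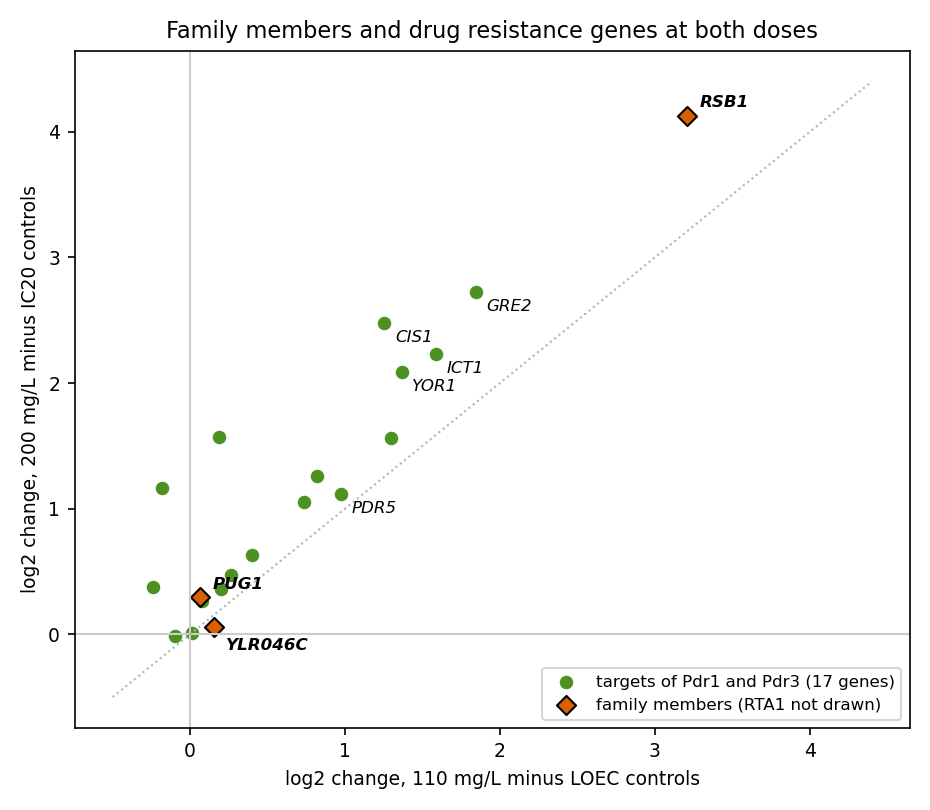
Log2 change at 200 mg/L (vertical) against 110 mg/L (horizontal) for 17 targets of Pdr1 and Pdr3 (circles) and for RSB1, PUG1 and YLR046C (diamonds); the dotted line marks equal changes. RSB1, whose controls read near background so that its place is not exact, is at 3.21 and 4.13, above GRE2 at 1.85 and 2.72, while PUG1 and YLR046C lie near 0. RTA1 is left out because both its means at 110 mg/L are below 228.8. The targets PDR18, HXT9 and HXT11 are drawn although both their means are below 228.8 at each dose, so their places are not exact.

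Of 25 genes of sphingoid base metabolism, which make and consume the lipids that Rsb1 exports, 3 rose and 0 fell at 110 mg/L, and 8 rose and 5 fell at 200 mg/L, with medians of 0.015 and 0.024. The falls were 3 without LOEC control array 2 or 110 mg/L array 2, 2 without 200 mg/L array 2, and 1 without IC20 control array 3 or 200 mg/L array 3. The fall of LAG1 was lost without any single array other than IC20 control array 1, where that of CSH1 was lost. The rise of CSG2 was lost without IC20 control array 2 or 200 mg/L array 1 or 2 (limma adjusted p = 0.096, 0.0504 and 0.0941). The hydroxylase SUR2 rose by 0.33 and 0.44 at 110 and 200 mg/L, the ceramide synthase subunit LAC1 by 0.30 and 0.38 and the ceramidase YPC1 by 0.40 and 0.50. The rise of YPC1 at 110 mg/L (limma adjusted p = 0.026) was lost without LOEC control array 1 or 2 (0.111 and 0.126) and without 110 mg/L array 1 or 2 (0.108 and 0.087). IPT1, of the last step to the most complex sphingolipid and also on the Pdr1 and Pdr3 list, rose by 0.36 at 200 mg/L and had 0.20 at 110 mg/L. The sphingoid base kinase LCB4 had 0.093 and 0.095, and the lyase DPL1, which breaks phosphorylated bases, had -0.0021 and -0.042, none past the test.

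Among 10 genes listed for phospholipid flippases and their kinases, 1 rose and 0 fell at 110 mg/L and 3 rose and 0 fell at 200 mg/L, with medians of 0.018 and 0.15. The entry CRF1 was matched by name alone, so it may not be the flippase subunit, and all its group means lie below 228.8. The flippase DNF2 rose by 0.28 and 0.53, the first of which was lost without LOEC control array 2 or 3 (limma adjusted p = 0.0909 and 0.069) or without 110 mg/L array 1, 2 or 3 (0.0718, 0.0737 and 0.0643). DNF3 (0.22) and the flippase kinase FPK1 (0.23) rose at 200 mg/L, but 1 gene was left without any single array other than LOEC control 3 and 200 mg/L array 2. Of 13 genes of the Rim101 pathway, which signals changes of membrane lipid asymmetry and ambient pH, 0 passed at 110 mg/L. There 2 had an unadjusted limma p under 0.05, beside 890 of 5449 genes. At 200 mg/L RIM8 rose (0.32) and VPS25 fell (-0.15), and RIM101 had 0.11 and 0.24 at the 2 doses, which did not pass. The rise was lost without IC20 control array 1 or 2 or 200 mg/L array 3 or 2 (limma adjusted p = 0.0746, 0.0778, 0.0729 and 0.0674), and the fall without LOEC control array 1 or 2, 110 mg/L array 2, any 1 of the IC20 controls, or 200 mg/L array 2 or 3 (0.0503 to 0.123). Without LOEC control array 3 or 200 mg/L array 1, 2 genes of the pathway rose.

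For the sterols, which 7-aminocholesterol resembles, the list held 15 genes, of synthesis and of its regulators UPC2 and ECM22. Of these 1 rose and 0 fell at 110 mg/L and 5 rose and 0 fell at 200 mg/L, with medians of 0.061 and 0.11. ERG3 rose by 0.28 and 0.45, the regulator ECM22 by 0.29 at 200 mg/L, ERG26 by 0.28 and ERG27 by 0.23. The rise of ERG3 at 110 mg/L was lost without any 1 of the 6 arrays of the LOEC experiment (limma adjusted p = 0.0718 to 0.123). For heme, the cargo of Pug1, 1 of 17 genes rose and 0 fell at 110 mg/L, and 3 rose and 2 fell at 200 mg/L, with medians of 0.00066 and -0.016. The falls were 1 without IC20 control array 3 or 200 mg/L array 3, and the rises at 110 mg/L were 2 without 200 mg/L array 3. The heme oxygenase HMX1 rose by 0.66 and 1.18, HEM14 by 0.36 at 200 mg/L and HEM13 by 0.19, while HEM2 fell by 0.20, and the regulator HAP1 had 0.12 and 0.15 that did not pass. The rise of HEM13 was lost without LOEC control array 1 or 2, 110 mg/L array 1, IC20 control array 1 or 2, or 200 mg/L array 1 or 2 (limma adjusted p = 0.0522 to 0.124).

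Of 18 hypoxic genes, which respond to low oxygen and heme, 2 rose and 2 fell at 110 mg/L and 3 rose and 3 fell at 200 mg/L, with medians of 0.0090 and -0.015. HEM13, which rose at 200 mg/L, and HMG2 are also on the heme list, and ERG11 is also on the sterol list, so the counts overlap. COX5B, a subunit of cytochrome c oxidase, changed by -0.35 at both doses, the iron transporter FET4 by -0.27 and -0.81 and the cell wall mannoprotein TIR4 by -0.48 at 200 mg/L, while ANB1, a translation factor, rose by 0.31 and 0.23. The rises at 110 mg/L were 0 without LOEC control array 1 or 2 or 110 mg/L array 1 or 3, and 1 without LOEC control array 3. The falls there were 1 without any 1 of the 6 arrays of the LOEC experiment or IC20 control array 3. The rises at 200 mg/L were 1 without LOEC control array 1 or 2, 110 mg/L array 1, IC20 control array 1, or 200 mg/L array 1 or 2.

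**Figure D4:**
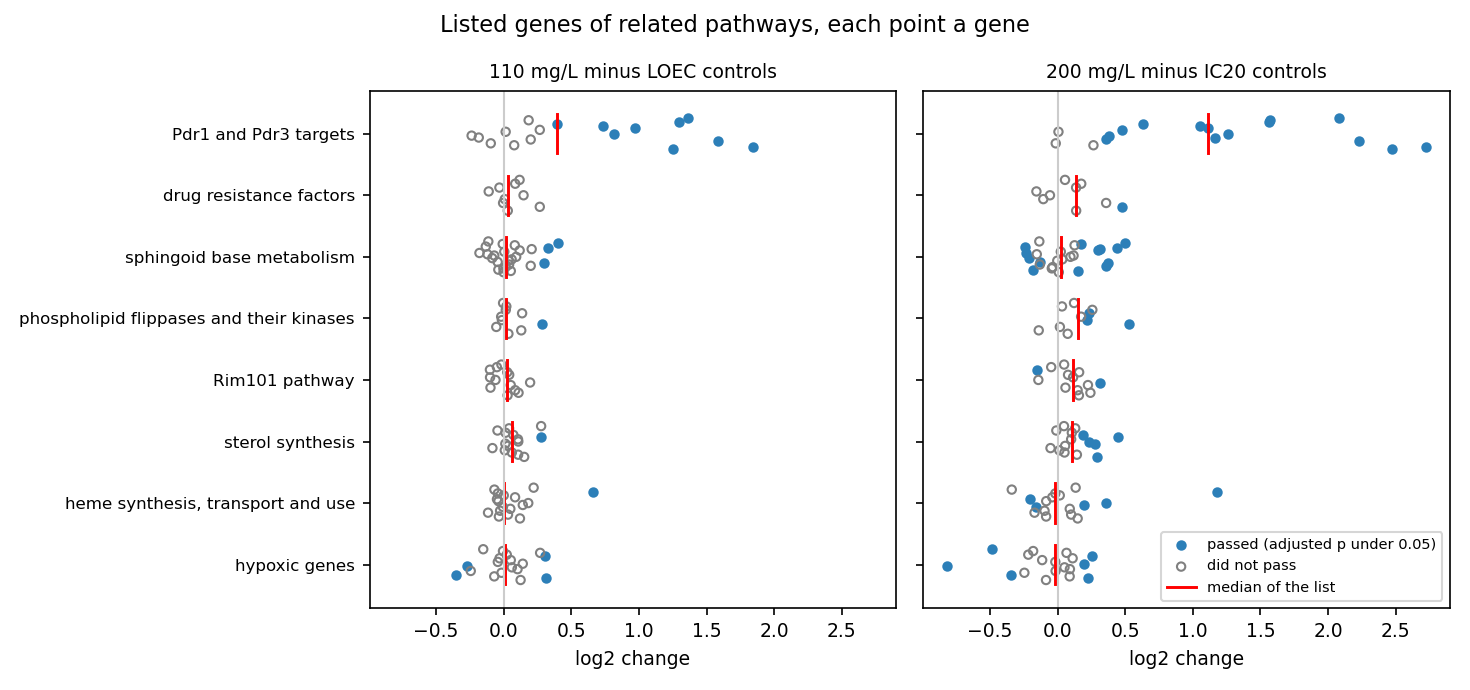
Log2 change of each gene (points) in 8 lists at 110 mg/L (left) and 200 mg/L (right); filled points passed at adjusted p under 0.05 in limma, and red marks are medians. The medians of the targets of Pdr1 and Pdr3, 0.40 and 1.11, stand to the right of the others, which lie between 0 and 0.15 or just below 0.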

How the data were processed

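The deposited values are probe set intensities made by the authors from 1-colour arrays. The submitters' processing notes name Affymetrix Expression Console, and the summarization and normalization are not given in the sources used here. Log2 was taken with no pseudocount. Of 5716 probe sets, 5498 carry 1 gene name, updated through RefSeq R64. The brightest stood for 47 genes with several, leaving 5449. No gene was filtered out. limma 3.58.1 (R 4.3.3) fitted 4 group means over 12 arrays (8 residual and 2.73 prior degrees of freedom) with eBayes, two-sided, Benjamini-Hochberg over 5449 genes. An exact permutation test of 3 against 3 cannot go below p = 0.1. The procedure was tested on simulated data.

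The members, lists and alternatives were chosen with earlier results of these data known. Named were all members, their 5 nearest genes by each measure, up to 4 called genes per list with the largest changes, and 10 fixed genes. Replicate numbers were not taken to pair samples, and no pairing was modelled in the main fit. Deviations of same-numbered arrays correlated at -0.615 to 0.144. Those of differently numbered arrays correlated at -0.481 to 0.648, highest for 200 mg/L array 1 with IC20 control array 2. These values do not settle whether samples were paired.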

Additional observations from a re-analysis of the deposited data

How the results depend on the processing

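The log2 changes of RSB1, RTA1 and PUG1 with alachlor kept their sign under all alternatives run. With 1 array left out in turn they were 3.18 to 3.23 for RSB1, 0.865 to 1.004 for RTA1, 0.0016 to 0.18 for PUG1 and 0.13 to 0.17 for YLR046C at 110 mg/L, and 4.08 to 4.19, 2.30 to 2.49, 0.25 to 0.34 and -0.081 to 0.21 at 200 mg/L. Values of RTA1 rest on control readings below 228.8, at 110 mg/L on both means below it, and give a direction of the readings but no size. RSB1 at 110 mg/L was 3.15 with quantile normalization and 3.12 with 16 added to the values. RTA1 and PUG1 have no value without the 20% dimmest genes. Dropping both 200 mg/L array 1 and the second IC20 control, chosen after seeing the data, gave 0.10 for YLR046C at 200 mg/L. No member passed between the controls under any alternative that could be fitted (limma adjusted p = 0.379 to 0.993).

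Counts of genes passed moved more. At 110 mg/L there were 232, with 113 to 266 when 1 array was left out, 358 with the length trend removed and 108 at adjusted p under 0.01. At 200 mg/L there were 971, with 713 to 973, 444 from the 6 arrays alone and 481 at 0.01. The difference of the responses had 68, with 39 to 68, 105 with the trend removed and 32 at 0.01. Between controls there were 43, with 5 to 58, 20 without the dimmest genes, 106 with the trend removed, 11 from 6 arrays and 7 at 0.01. With the replicate number as a block the counts were 97, 519 and 21, and no block could be fitted between controls. The causes were not tested.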
